A study of Mus musculus with 3 samples.

Results

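The genes described here are transcription factors that commit cells to skeletal muscle and drive their differentiation, together with Snai1, a repressor. They were read on 3 arrays of C2C12 cells, a clonal mouse myoblast line that can fuse into muscle fibres in culture. They are 9 genes chosen by name, namely Myod1, Myf5, Myog, Myf6, Mef2a, Mef2c, Mef2d, Six4 and Snai1, out of 12393 named genes on the array, and they carry 19 of its 22690 probe sets. The untreated group was not transfected, the EGFP group received enhanced green fluorescent protein as the transfection control, and the DGKzeta group received diacylglycerol kinase zeta, an enzyme that turns diacylglycerol into phosphatidic acid. All groups grew in medium with fetal calf serum, carry the time label 12 h and had been plated for 18 h when transfection with FuGene took place. Neither the promoter of the constructs nor the share of cells that took them up is stated in the sources used here. Each group has 1 array, so no difference below has a replicate check, no test across arrays could be run, and every comparison is a size only.

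The myogenic regulatory factors Myf5, MyoD (encoded by Myod1), Mrf4 (Myf6) and myogenin (Myog) are basic helix-loop-helix proteins that pair with E proteins and bind E-boxes in muscle genes. Myf5 and MyoD mark proliferating myoblasts, whereas myogenin appears as cells leave the cycle and differentiate. MEF2 proteins are MADS-box factors that act with them on the same genes and are held back by class IIa histone deacetylases, Six4 is a homeobox factor that acts upstream of them with EYA proteins, and Snai1 is a zinc finger repressor that competes for E-boxes.

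Promoter windows of the members are shown because these factors act on one another through a small set of DNA motifs. RefSeq windows of assembly GRCm38.p6, reaching from 250 bases before to 50 bases after a start site, were at hand for 7 of the 9 genes in 10 windows. Both strands were searched for the E-box CANNTG and its forms CAGCTG and CAGGTG, for the MEF2 motif and for the CArG box, the motif of serum response factor. Below are Myf5, Six4, Snai1 and Mef2a, the members with the highest or lowest ratios and the 1 window in which the search counted a MEF2 motif. Capitals mark E-boxes and MEF2 motifs, and each is written 5′ to 3′ along the gene.
Myf5, chr10:107486085-107486384, minus strand: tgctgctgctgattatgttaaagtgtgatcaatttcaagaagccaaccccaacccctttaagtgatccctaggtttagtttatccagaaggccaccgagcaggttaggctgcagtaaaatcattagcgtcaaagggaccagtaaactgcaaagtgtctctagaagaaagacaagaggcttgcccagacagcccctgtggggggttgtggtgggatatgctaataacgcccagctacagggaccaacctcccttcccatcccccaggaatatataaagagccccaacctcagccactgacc
Six4, chr12:73113196-73113495, minus strand: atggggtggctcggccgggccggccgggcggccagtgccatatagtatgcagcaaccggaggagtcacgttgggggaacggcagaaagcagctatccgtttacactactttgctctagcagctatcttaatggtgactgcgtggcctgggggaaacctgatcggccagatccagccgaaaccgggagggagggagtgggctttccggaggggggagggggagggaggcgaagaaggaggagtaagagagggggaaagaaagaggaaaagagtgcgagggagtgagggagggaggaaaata
Snai1, chr2:167537945-167538244, plus strand: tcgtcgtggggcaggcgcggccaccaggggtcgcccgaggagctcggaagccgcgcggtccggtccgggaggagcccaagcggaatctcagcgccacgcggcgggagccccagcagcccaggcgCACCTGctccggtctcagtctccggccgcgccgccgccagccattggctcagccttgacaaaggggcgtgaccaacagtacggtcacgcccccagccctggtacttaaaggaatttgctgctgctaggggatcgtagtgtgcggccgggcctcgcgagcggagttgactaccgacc
Mef2a, chr7:67372809-67373108, minus strand: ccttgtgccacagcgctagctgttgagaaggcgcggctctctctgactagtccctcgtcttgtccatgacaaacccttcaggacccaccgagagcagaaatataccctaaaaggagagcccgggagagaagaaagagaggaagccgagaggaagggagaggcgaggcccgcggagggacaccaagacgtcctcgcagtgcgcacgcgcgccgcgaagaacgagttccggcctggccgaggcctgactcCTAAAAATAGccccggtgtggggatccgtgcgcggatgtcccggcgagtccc
The Snai1 window had 1 E-box, at position -126 from the start site, which reads CACCTG and so is CAGGTG on the other strand, the form that SNAIL proteins bind. In the whole table CAGGTG lay in 20.2% of 32851 windows and any E-box in 72.3%. The Mef2a window had a MEF2 motif across its start site, beginning at -2, a motif found in 3.19% of all windows. None of these motifs lay in the windows of Myf5, Mef2d and Six4, which says only that these letters are not within 300 bases there. The Myog window held 2 E-boxes, at -138 and -12. It also reads ctatatttat, near to a MEF2 motif, which the search did not count. The counts thus do not show that a window lacks a MEF2 site. Of the 3 Mef2c windows the first held 2 E-boxes, the second none and the third 1. A CArG box, present in 1.63% of all windows, was in none of the members' windows, and CAGCTG, present in 16.3%, was in none either.

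Signals are deposited probe set intensities on a linear scale, with a mean between the 2nd and 98th percentile of 499.9 on each array. A probe set counted as measured when it reached a floor of 107, the median of all values pooled, which is not a detection call, and values under it were set to it before a ratio was taken. By this floor 8 of the 19 probe sets of the members were measured on all 3 arrays, 1 on 2 arrays and 10 on none. Those 8 probe sets belong to 5 genes (Myf5, Mef2a, Mef2d, Six4 and Snai1), and the other 4 genes were under the floor with every probe set. Dgkz, the transfected gene, read 1500.1 in untreated, 1053 in EGFP and 13466 in DGKzeta cells by its brightest probe set, so the DGKzeta label is borne out. The ratio of the Actb 3' to 5' control probe set, a sign of RNA integrity and labelling, was 1.27 in untreated, 1.43 in EGFP and 2.55 in DGKzeta cells, and that of Gapdh 0.841, 0.902 and 0.931. The part of this difference in the results below was not tested. In RNA from whole cultures, fewer cells that express a gene and less RNA per cell cannot be told apart.

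**Figure D1:**
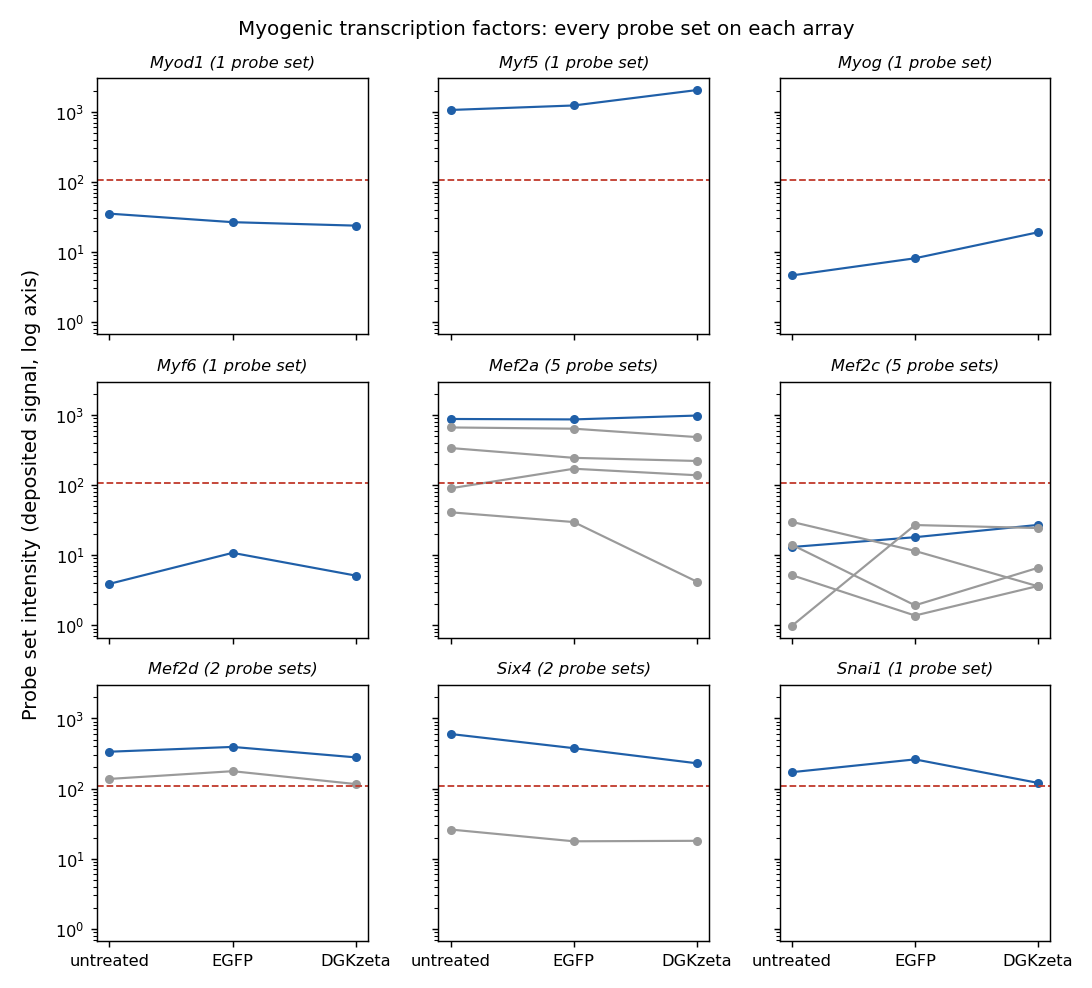
Deposited intensity (log axis) of each probe set of the 9 genes on the untreated, EGFP and DGKzeta arrays, with 1 point per array and a line joining the points of 1 probe set. The brightest probe set of a gene is blue and the others grey, and the dashed line is the floor of 107. Every probe set of Myod1, Myog, Myf6 and Mef2c lies under it, at 35.1 or less, whereas Myf5 lies at 1058 or more.

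Among the myogenic regulatory factors Myf5 alone was measured. Its probe set (1420757_at) read 1058 in untreated, 1227 in EGFP and 2036 in DGKzeta cells. The DGKzeta array was the highest and both controls lay close together, a ratio of 1.66-fold to EGFP (log2 ratio 0.73), of 1.92-fold to untreated cells (0.94) and of 1.16-fold between the controls (0.21). It did not reach the 2-fold size used here to call a gene higher, though only 1.32% of the 6434 genes measured on all 3 arrays had a ratio as high against EGFP and 1.40% against untreated cells. With arrays set to equalised medians over measured probe sets the log2 ratio to untreated cells became 1.04, past 2-fold. With equalised medians over all named probe sets both were past it, at log2 ratios of 1.09 against EGFP and 1.21 against untreated cells. Myf5 has 1 probe set, so no other reading of it exists on these arrays.

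Myod1, the other factor of proliferating myoblasts, was under the floor on every array. Its probe set (1418420_at) read 35.1 in untreated, 26.5 in EGFP and 23.7 in DGKzeta cells. Myog read 4.61, 8.10 and 19.0 in the same order, and Myf6, the factor of late differentiation, 3.91, 10.8 and 5.13. None of these 3 genes has a second probe set, no ratio is given for them because values under the floor have no order, and a transcript below what these probe sets can read is not shown to be absent. The label of the cells was therefore checked on other myoblast markers. Of a list of 10, which includes Myf5 and Myod1, 8 were measured on all 3 arrays, among them desmin (Des) at 795, 932 and 479, the muscle acetylcholine receptor subunit Chrna1 at 1072, 886 and 1031, integrin alpha 7 (Itga7) at 548, 579.6 and 364, and M-cadherin (Cdh15) at 140.4, 191 and 124. Myod1 and the caveolin gene Cav3 were the markers under the floor. Most of the 8 were lower on the DGKzeta array, 5 of them against EGFP and 6 against untreated cells, with median log2 ratios of -0.47 and -0.38 where those over all named genes were -0.02. Of these 8, 1 gene, the adhesion molecule Ncam1, was past 2-fold lower by its brightest probe set, at -1.31 against EGFP and -1.20 against untreated cells. Its other measured probe set gave -0.25 and 0.23. Over all genes 2.84% and 2.8% were at least 2-fold lower. Vcam1 gave 0.19 and 0.16 by its brightest probe set but -0.73 and -0.75 by another one measured on all arrays. The summed signal of the list was 4890.3 in untreated, 4987 in EGFP and 4937 in DGKzeta cells, and without Myf5 it was 3832, 3759.8 and 2901. The part of the lower myoblast markers in the ratios of the members was not tested. Of 10 markers of differentiated fibres, such as the creatine kinase gene Ckm and the fast myosin genes, Acta1 was the 1 measured on any array.

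Of the MEF2 genes, Mef2a and Mef2d were measured and neither was 2-fold apart in any comparison. The brightest of 5 Mef2a probe sets (1427185_at) read 880.0 in untreated, 867 in EGFP and 985 in DGKzeta cells, log2 ratios of 0.18 to EGFP and 0.16 to untreated cells. The next 2 lay on the other side of 0. The second brightest had 666, 639.7 and 485, with log2 ratios of -0.40 and -0.46, and the third 339, 245 and 221, with -0.15 and -0.61. The fourth had 90.3, 172 and 138, under the floor in untreated cells, and the fifth 41.0, 29.8 and 4.19. Probe sets of Mef2a thus differ in direction, and their mean, in which the fifth counts as 0, gave -0.13 against EGFP and -0.11 against untreated cells.

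Mef2d gave like ratios with both of its probe sets. The brighter one (1434487_at) read 336 in untreated, 393 in EGFP and 279 in DGKzeta cells, and the other 137, 177 and 116. DGKzeta was the lowest array and EGFP the highest with each. Against EGFP the log2 ratios were -0.50 and -0.61, and against untreated cells -0.27 and -0.24. Equalised medians over all named probe sets put the brighter one at -0.13 and -0.0049. Mef2c, which has 5 probe sets, stayed under the floor with all of them, at signals from 0.981 to 30.0. The fourth gene of the family, Mef2b, was under it as well, at 5.52, 4.49 and 2.72.

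**Figure D2:**
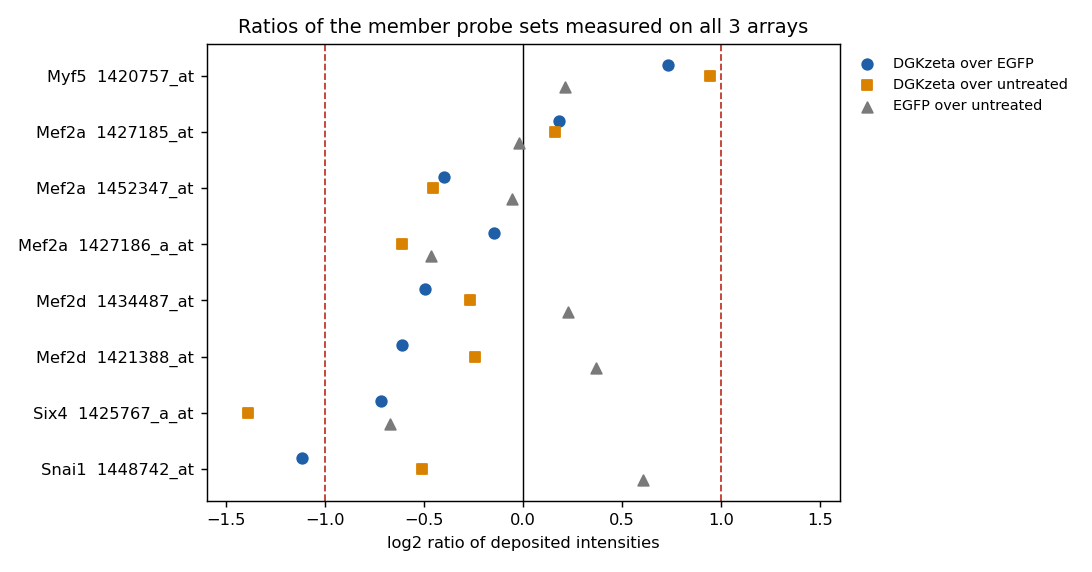
Log2 ratios of the 8 probe sets measured on all 3 arrays, with DGKzeta over EGFP as blue circles, DGKzeta over untreated as orange squares and EGFP over untreated as grey triangles, and dashed lines at 2-fold. The Six4 probe set lies at -1.39 against untreated cells and that of Snai1 at -1.12 against EGFP, outside the dashed lines. Both Mef2d probe sets lie near each other and the 3 of Mef2a on both sides of 0.

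Six4 and Snai1 were the lowest members, each against a different control. Six4 (1425767_a_at) read 600.3 in untreated, 377 in EGFP and 229 in DGKzeta cells. The arrays stand in nearly even steps on the log2 scale, with EGFP between the others: DGKzeta was 2.62-fold below untreated cells (log2 ratio -1.39) and 1.64-fold below EGFP (-0.72), and EGFP was 1.59-fold below untreated cells (-0.67). A ratio as low as that of Six4 was found for 0.808% of the 6434 genes between DGKzeta and untreated cells, for 7.06% between DGKzeta and EGFP and for 0.762% between EGFP and untreated cells. The ratio to untreated cells stayed past 2-fold under all 4 scalings, between -1.39 and -1.12. The other Six4 probe set was under the floor on every array, at 26.0, 17.7 and 18.0, and gives no second reading. The floor sets its ratio to 0, so a mean over both probe sets, -0.69 against untreated cells, is smaller by construction and does not bear on the first.

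Snai1 was highest in EGFP cells. Its only probe set (1448742_at) read 171 in untreated, 261 in EGFP and 120.4 in DGKzeta cells, the last just above the floor. DGKzeta was 2.17-fold below EGFP (log2 ratio -1.12) and 1.42-fold below untreated cells (-0.51), and EGFP was 1.52-fold above untreated cells (0.61). Of the 6434 genes 1.82% were as low against EGFP and 3.28% as high between EGFP and untreated cells. After quantile normalization its ratio to EGFP was -0.83 and with equalised medians over all named probe sets -0.75, both short of 2-fold. With equalised medians over measured probe sets it was -1.01.

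By the 2-fold rule 1 of 5 measured members, Snai1, was lower than EGFP in DGKzeta cells and none was higher, where 2.84% of 6926 genes were lower and 0.347% higher. Against untreated cells 1 of 5, Six4, was lower and none was higher, where 2.8% of 6866 genes were lower and 1.34% higher. Between EGFP and untreated cells 0 of 5 were apart, where 0.361% of 6932 genes were higher and 0.303% lower. Counted by probe set, 1 of 9 measured ones was 2-fold apart against EGFP, where 4.78% of 10866 named probe sets were, 1 of 9 against untreated cells, where 7.04% of 10833 were, and 0 of 9 between the controls, where 1.23% of 10954 were. As deposited, no member was 2-fold apart from both controls, a size that 1.42% of 6988 genes reached downwards and 0.272% upwards. The median log2 ratio of the 5 members was -0.50 against EGFP and -0.27 against untreated cells, with -0.02 over all named genes in both comparisons, and 0.21 between the controls, with 0.02 over all. The median against EGFP did not hold its sign: it was 0.0095 over 8 members with a floor at the 25th percentile and 0.46 over 2 with one at the 75th, and with equalised medians over all named probe sets it was -0.13, where that over all genes was 0.33. Both comparisons of DGKzeta share its array, so a gene low in both is not seen low in independent samples. As a yardstick of error within these arrays, the difference between the brightest and second-brightest probe sets of 2245 genes gives a single probe set an SD of 0.40 in the log2 ratio of DGKzeta to EGFP, 0.50 in that to untreated cells and 0.27 between the controls. In size, the ratios of Myf5, Six4 and Snai1 to both controls were over this SD, that of Snai1 to untreated cells (-0.51) only just, and so were those of both Mef2d probe sets to EGFP. The ratios of Mef2d to untreated cells and those of the brightest Mef2a probe set were under it. Of the other Mef2a probe sets measured on all arrays, the second brightest was about level with it against EGFP (-0.40) and the third over it against untreated cells (-0.61). This SD covers different probes on 1 RNA extract and not the spread between cultures.

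**Figure D3:**
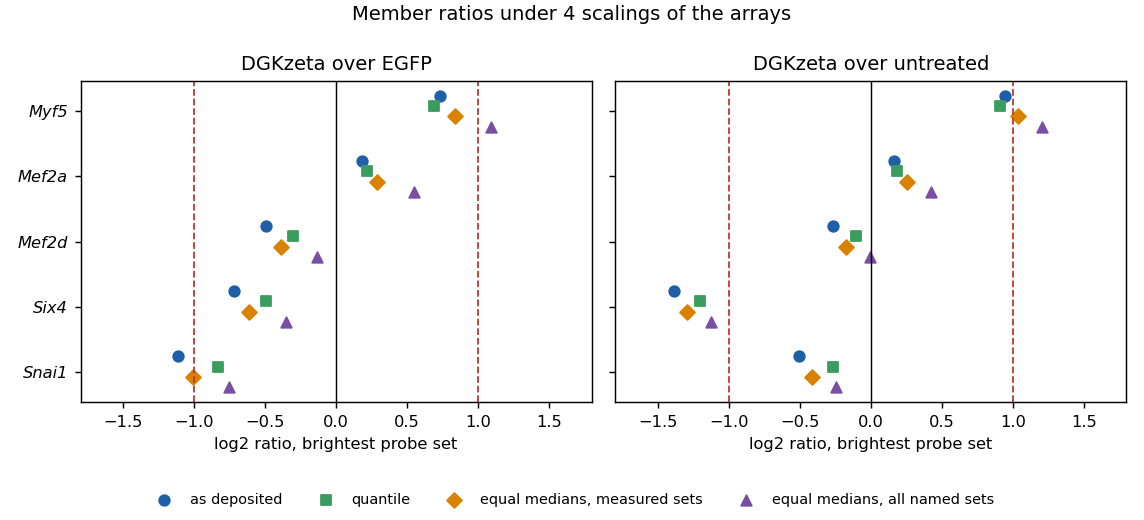
Log2 ratios of the brightest probe sets of the 5 measured members under 4 scalings of the arrays, with DGKzeta over EGFP on the left and over untreated on the right, and dashed lines at 2-fold. Both median scalings move all 5 members to the right, by up to 0.36 against EGFP, quantile normalization moves Myf5 slightly to the left, and Six4 over untreated stays below -1 under each scaling. Myf5 over untreated crosses 1 under both median scalings.

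Median signals differed between the arrays, at 111 in untreated, 119 in EGFP and 92.5 in DGKzeta cells. Equalised medians over all named probe sets moved each log2 ratio of DGKzeta between values above the floor up by 0.36 against EGFP and by 0.26 against untreated cells. The median over all measured probe sets then lay at 0.34 and 0.23, so that relative to it the members kept their places. Equalised medians over measured probe sets moved the ratios up by 0.10 and 0.09.

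The partners and opponents of these factors were read on lists of their own, and few were 2-fold apart, as was so over all genes. Of all genes 2.84% were at least 2-fold lower than EGFP and 0.347% higher, and 2.8% and 1.34% against untreated cells. Of the 3 E proteins, which pair with MyoD and Myf5, Tcf3 read 373, 345 and 233, log2 ratios of -0.56 to EGFP and -0.68 to untreated cells. Tcf12 gave 0.31 and 0.45 by its brightest probe set but -0.28 and -0.30 by the next. Tcf4 gave -0.19 and 0.37 by its brightest probe set and 0.02 and 0.29 by the other one measured on all arrays. The lowest among its 6 probe sets gave -1.37 and -1.70, and another gave -0.91 and -1.24. Both of these were under the floor in DGKzeta cells, so their ratios are bounds. Of 12 inhibitors of helix-loop-helix factors 6 were measured on all arrays and none was 2-fold apart. That is near the shares over all genes and is not a result about the inhibitors. Id2, which binds E proteins and keeps them off DNA, gave 0.50 and 0.54 by its brightest probe set and -0.54 and -0.96 by the next. Id1 gave -0.13 and -0.51, and Bhlhe40 gave 0.17 and 0.67. Hes1, a Notch target, gave -0.42 and 0.03.

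Among repressors related to Snai1 none was called 2-fold apart as deposited, though for Zeb2 the floor leaves only a bound. That too is near the shares over all genes given above and is not a result about these repressors. Snai2, the closest relative of Snai1, read 265 in untreated, 436 in EGFP and 509 in DGKzeta cells. Its log2 ratios were 0.22 against EGFP and 0.94 against untreated cells, the latter past 2-fold under each of the 3 other scalings. Zeb1 gave 0.21 and 0.16, and Twist2, a helix-loop-helix repressor, -0.29 and -0.17. Zeb2 was measured in untreated cells alone, at 165, with 48.0 in EGFP and 22.3 in DGKzeta cells. The log2 ratio of each of these 2 groups to untreated cells, -0.62, is therefore a bound set by the floor. Around Six4, 7 of 8 genes of a list of Six4 relatives and EYA partners were named on the array. Eya3, a phosphatase that acts as a coactivator of Six4 and its relatives, gave 0.09 and 0.25, and Eya1 was close to the floor at 129, 91.3 and 108. The other 5 were under the floor. Upstream of the myogenic factors, Pax3 and Pax7 were among 8 of 9 genes under the floor, and Met, the receptor of hepatocyte growth factor on muscle progenitors, read 402, 285 and 228.

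**Figure D4:**
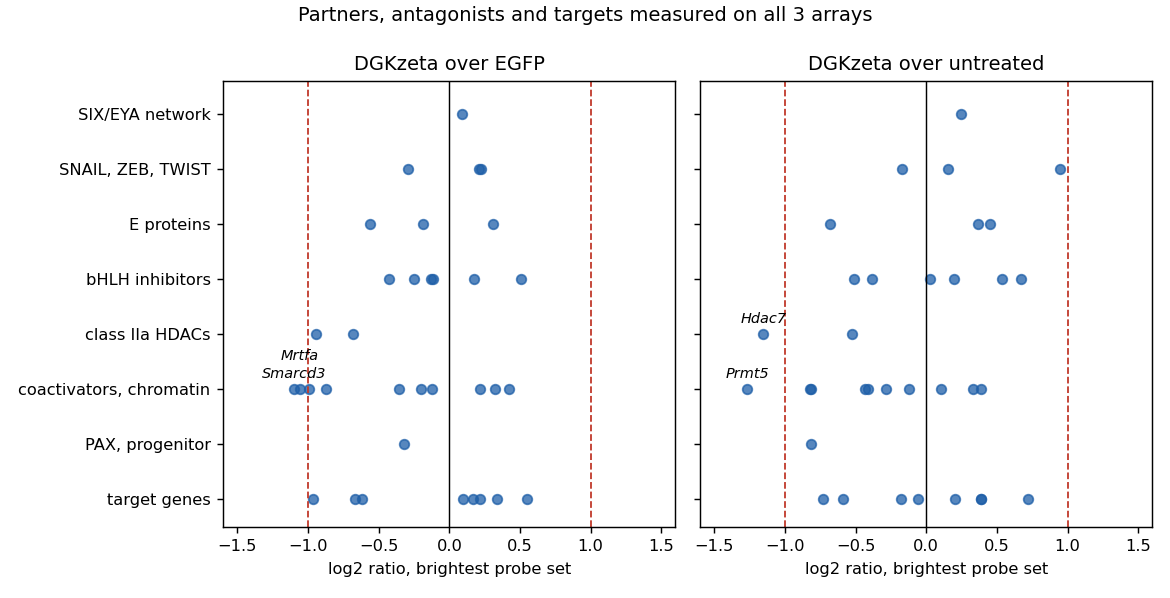
Log2 ratios of list genes measured on all 3 arrays by their brightest probe set, 1 point per gene and 1 line of points per list, with DGKzeta over EGFP on the left and over untreated on the right and dashed lines at 2-fold. Named points lie at 2-fold or beyond: Smarcd3 and Mrtfa on the left, Hdac7 and Prmt5 on the right. All other genes of these lists of partners, antagonists and targets lie between the dashed lines. The marker lists are not drawn, but Des, Cdh15, Chrna1, Itga7 and Met, which are myoblast markers too, are drawn as members of these lists.

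Deacetylases and coactivators held the partner genes at or past 2-fold by their brightest probe sets. Hdac7, a class IIa deacetylase that binds MEF2, read 598 in untreated, 516 in EGFP and 269 in DGKzeta cells, log2 ratios of -0.94 to EGFP and -1.15 to untreated cells. Its other probe set, under the floor in DGKzeta cells, gave bounds of -0.78 and -0.98. After quantile normalization and with equalised medians over all named probe sets the ratio of Hdac7 to untreated cells fell short of 2-fold, at -0.99 and -0.89. Hdac5 had 227, 252 and 157, with -0.68 and -0.53. Both measured class IIa genes thus had their lowest signal in DGKzeta cells, as did Mef2d, Six4, Snai1, Tcf3 and Met. The pattern is not particular to class IIa genes, and its share over all genes was not counted.

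Of 11 coactivators and chromatin factors on the array 10 were measured, with medians of -0.28 against EGFP and -0.35 against untreated cells, beside -0.02 over all named genes in both. Of these 2 were at least 2-fold lower than EGFP, where 2.84% of all genes were: Smarcd3, the SWI/SNF subunit that works with MyoD, at 473, 577 and 269 (log2 ratio -1.10), and Mrtfa, a coactivator of serum response factor, at 712, 839 and 403 (-1.06). Against untreated cells 1 was, where 2.8% of all genes were, the arginine methyltransferase gene Prmt5, at 2400.2, 1825 and 997 (-1.27). All 3 were lower against the other control too: Smarcd3 gave -0.81 and Mrtfa -0.82 against untreated cells, and Prmt5 -0.87 against EGFP. Carm1, another arginine methyltransferase, gave -0.99 against EGFP and -0.41 against untreated cells. Kat2b, an acetyltransferase of MyoD, gave 0.42 and 0.39. The ATPase gene Smarca4 gave -0.36 and -0.12 by its brightest probe set, while the other, under the floor in DGKzeta cells, gave bounds of -1.15 and -2.40. Srf, serum response factor itself, gave -0.12 and -0.29 by its brightest probe set, while the other, at 274, 344 and 149, gave -1.21 and -0.88. Under the 3 other scalings Smarcd3 and Mrtfa were less than 2-fold lower than EGFP, and after quantile normalization Carm1 was past that size, at -1.01.

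None of the measured genes known to be switched on by the myogenic factors was 2-fold apart by its brightest probe set. Over all genes 2.84% were at least 2-fold lower than EGFP and 0.347% higher, and 2.8% and 1.34% against untreated cells. Having none is near these shares and is not a result about these targets. Of 22 such genes 20 were named on the array, 9 were measured on at least 1 array and 11 were under the floor, among them the embryonic myosin gene Myh3, the troponin gene Tnni1 and the fetal receptor subunit Chrng. Of the 9, 5 had ratios above 0 against EGFP and 4 against untreated cells, with medians of 0.10 and -0.06. Among them Des, Cdh15, Chrna1 and Itga7 are also on the list of myoblast markers, so the 2 lists are not independent. Desmin gave -0.96 and -0.73, Itga7 -0.67 and -0.59, and Cdh15 -0.62 and -0.18. Acta1, under the floor in DGKzeta cells, gave bounds of -0.43 and -0.45. Chrna1 gave 0.22 and -0.06, the receptor subunit Chrnb1 0.34 and 0.20, and the retinoblastoma gene Rb1 0.55 and 0.72, at 467, 527 and 769.8. Tnnt2, a troponin present in immature muscle, gave 0.17 and 0.38 by its brightest probe set and -0.09 and -0.03 by the other. Cdkn1a, the p21 inhibitor of cell cycle kinases, gave 0.10 and 0.39 by its brightest, and its other probe set, under the floor in DGKzeta cells, gave bounds of -0.43 and -0.82.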

How the data were processed

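RNA of 3 samples was labelled with biotin by the one-cycle Affymetrix protocol and read on 1 array per sample, per the labels' protocols. The authors made the deposited intensities with MAS5, as the submitters' processing notes say; its version, its scaling target and its detection calls are not stated in the sources used here. MAS5 joins the probes of a set into 1 signal. Of 22690 probe sets 64 are controls, 20380 have 1 gene symbol, 691 several and 1555 none, and only the first were named; 20351 were found by gene ID in RefSeq (GRCm38.p6), where 0 symbols differed. A gene's brightest probe set has the highest mean log2 intensity over the arrays. Values under the 50th percentile of all values (107) were set to it, and genes at least 2-fold apart were counted over those measured on at least 1 of both arrays. The number of arrays limits the precision.

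The members and lists were chosen with earlier results of these data known. Named are all members, list genes at least 2-fold apart and up to 3 others of each list with the largest ratios; further probe sets and genes were named after their values were seen. Alternatives were 3 other scalings, a floor at the 25th or 75th percentile or none, a pseudocount of 1.71, other choices of probe set, and rules of 1.5-fold and 3-fold. The counting was tested on simulated data. Python 3.11.15, numpy 2.4.6, pandas 2.3.3 and matplotlib 3.10.9 were used.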

Additional observations from a re-analysis of the deposited data

How the results depend on the processing

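The number of members 2-fold apart rests on small margins. Against EGFP it was 1 (Snai1) as deposited and 0 after quantile normalization, with a floor at the 75th percentile, by second-brightest probe sets and under the 3-fold rule; it was 1 with equalised medians over all named probe sets too, but there it was Myf5, higher. Under the 1.5-fold rule it was 3, with Myf5 higher and Six4 and Snai1 lower. Against untreated cells it was 1 (Six4) as deposited, 2 with equalised medians over all named or over measured probe sets and under the 1.5-fold rule (Myf5 higher in each), and 0 with the 75th percentile as floor, with the mean over probe sets, by second-brightest probe sets and under the 3-fold rule. Between EGFP and untreated cells it was 0 as deposited and 2 under the 1.5-fold rule. Shares of all genes were given above for the 2-fold rule on the deposited values alone. Counts under the other rules and settings have no such share beside them and are not results about the members. Counted by probe set, it went from 1 to 0 against EGFP after quantile normalization and from 1 to 2 against untreated cells under both median scalings. The lists of partners, antagonists and targets were counted without the marker lists, though some of their genes are markers too. Of their genes 2 were apart against EGFP as deposited, 1 (Carm1) after quantile normalization and 0 under both median scalings. Against untreated cells the number was 2 as deposited, Hdac7 and Prmt5, both lower. It was also 2 after quantile normalization and with equalised medians over all named probe sets, but there Snai2 was higher and Prmt5 lower. With equalised medians over measured probe sets it was 3, with Snai2 higher and Hdac7 and Prmt5 lower. Of the markers, Ncam1 and Sox9 were 2-fold lower than EGFP as deposited (-1.31 and -1.19) and with equalised medians over measured probe sets (-1.20 and -1.08), Ncam1 alone after quantile normalization (-1.09 and -0.96), and neither under the scaling to the median of all named sets (-0.94 and -0.83). The median of the members against EGFP, -0.50, was 0.0095 over 8 members with a floor at the 25th percentile and 0.46 over 2 with one at the 75th. Ncam1 against untreated cells turned from -1.20 to 0.23 by its second-brightest probe set. By construction a higher floor and second probe sets leave fewer members, and the mean over probe sets takes Six4 from -1.39 to -0.69 because its other probe set, under the floor, has its ratio set to 0; the cause of the other changes was not tested. No paired analysis was possible because each group has 1 array. Second probe sets exist for Mef2a, Mef2c, Mef2d and Six4 alone, so the ratios of Myf5 and Snai1 have no second reading.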

Other observations

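Markers of other lineages were low on all arrays, with few exceptions. No gene of the osteoblast (3 on the array), endothelial (4), leukocyte (4) and epithelial (4) lists reached the floor. Of 5 adipocyte markers Pparg, the nuclear receptor of fat cells, read 309, 319 and 319 in untreated, EGFP and DGKzeta cells, and the lipase gene Lpl 269, 343 and 399. Sox9, a factor of cartilage, was the 1 of 4 chondrocyte markers above the floor, at 402, 403 and 177, a log2 ratio of -1.19 against both controls. Its other probe set, at 265, 239 and 126, gave -0.92 against EGFP and -1.07 against untreated cells. The adhesion molecule Ncam1, a myoblast marker, had 428, 459 and 186 by its brightest probe set, with -1.31 and -1.20, but 205, 286 and 241 by the other measured one, with -0.25 and 0.23.

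By construction, a window of fixed width holds more genes for a member whose ratios lie near 0, where most genes lie. The counts of genes with profiles like those of the members are thus a description over 3 arrays and not a result about the members. Of 6433 other genes measured on all arrays, 443 had both DGKzeta ratios within 0.1 (log2) of those of Mef2a and 130 of those of Mef2d. For Myf5 there were 11, the nearest being Cstf3, at 626, 722 and 1236, and Nme1. For Six4 there were 4, the nearest being Tprkb, at 1226, 802 and 493, and Ctnnd1. For Snai1 there were 6, the nearest being Ilrun, at 263, 404 and 178, and Ankrd54.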
